A study of Mus musculus with 6 samples.

Results

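The genes described are 10 transporters that carry bile constituents and conjugated compounds out of liver cells, taken by name from a list: 5 that act at the canalicular membrane (Abcb11, Abcb4, Abcc2, Abcg2 and Abcb1a) and 5 at the basolateral membrane (Abcc3, Abcc4, Abcc6, Slc51a and Slc51b). They are 10 of 18194 genes measured in whole livers of mice. All groups shared the C57BL/6 background and the CYP2D6 transgene, a human drug-metabolising P450 gene that humanizes the line. Livers came from the pre-pregnancy stage, from day 21 of pregnancy and from day 7 postpartum, with 2 biological replicates per stage and 1 Affymetrix array per liver. The labels give neither the age of the animals nor the time of day or feeding at collection, so stage and any difference in these cannot be told apart. Levels are log2 values after RMA, the standard summary of Affymetrix probes, and each gene was read from its brightest probe set.

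Hepatocytes make bile by pumping solutes across a small apical membrane, the canaliculus, with ATP-driven pumps of the ABC family. Bile salts and conjugates that are not secreted into bile can leave across the basolateral (sinusoidal) membrane into blood, through other ABC pumps and through the heterodimeric carrier encoded by Slc51a and Slc51b. The bile acid receptor FXR (Nr1h4), the xenobiotic receptors PXR and CAR (Nr1i2 and Nr1i3) and the stress regulator Nrf2 (Nfe2l2) are known to control many of these genes.

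At day 21 of pregnancy 3 basolateral transporter genes, Abcc3, Slc51b and Abcc4, and the canalicular pump gene Abcb1a were lower than before pregnancy. By day 7 postpartum Abcc3, Abcc4 and Slc51b had risen again relative to pregnancy, and Abcc4 stood above its pre-pregnancy level. The bile salt export pump gene Abcb11 was higher postpartum than before pregnancy. Abcb4, Abcc2, Abcg2, Abcc6 and Slc51a passed the test in none of the comparisons (0 of 3), and Abcc2 stayed between 9.66 and 9.88 on all 6 arrays.

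**Figure D1:**
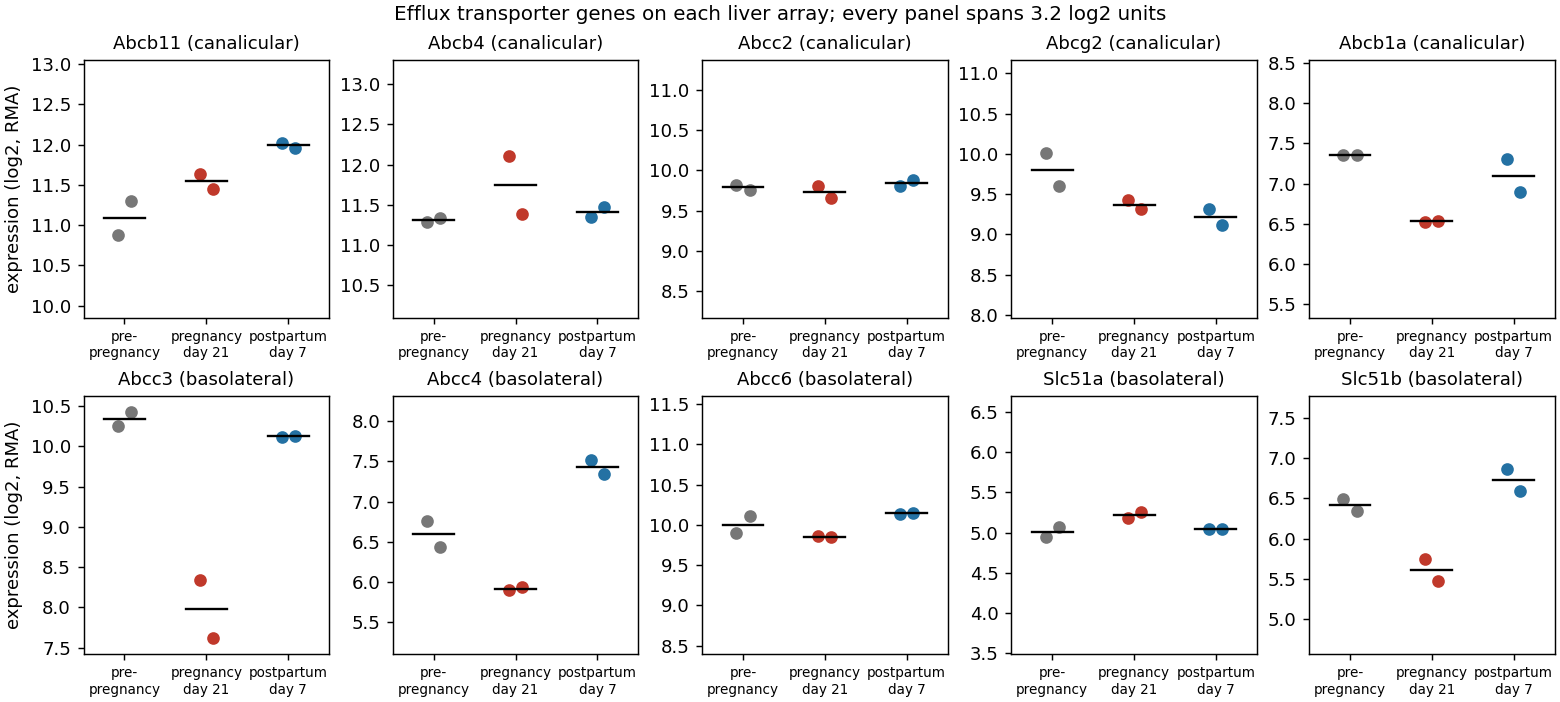
Log2 level (vertical axis) of each efflux transporter gene on every array by stage, 2 points per stage with a bar at their mean; each panel spans the same height on its own scale. Abcc3, Abcc4, Abcb1a and Slc51b are lowest in pregnancy, Abcb11 is highest postpartum, and Abcc2 stays between 9.66 and 9.88.

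Every array had a median near 5.1 over its 45101 probe sets (5.09 to 5.15) and a lower quartile of 3.91 to 4, which mark the dim end of the scale. Replicates correlated across genes at 0.994 to 0.997, and the median gap between replicates was 0.12 before pregnancy, 0.14 in pregnancy and 0.12 postpartum. Differences were tested with limma over all genes and arrays, with Benjamini-Hochberg adjusted p-values below 0.05 called. Hepatocyte markers were bright at each stage: 7 of 7 measured, including Alb and Ttr, lay between 11.95 and 14.98, and 0 of the 7 were called in any comparison. The number of arrays limits the precision.

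The promoters of the called members are shown because these are the genes that moved between stages. RefSeq promoter windows (build GRCm38.p6) were at hand for 8 of the 10 genes, with Abcb11, Abcb1a, Slc51b and Abcc4 among them. None was at hand for Abcc3 and Abcc6, although both genes are in the RefSeq annotation. Each window runs from 250 bases before to 50 after an annotated start and is written 5′ to 3′ on the gene's strand. For Abcc4, which has 2 entries, the one with the higher coordinates is shown. Capitals mark matches, on either strand, to the hexamer AGGTCA that many nuclear receptors bind, or to the antioxidant response element core TGACNNNGC known from Nrf2.
Abcb11 (chr2:69342567-69342866, minus strand): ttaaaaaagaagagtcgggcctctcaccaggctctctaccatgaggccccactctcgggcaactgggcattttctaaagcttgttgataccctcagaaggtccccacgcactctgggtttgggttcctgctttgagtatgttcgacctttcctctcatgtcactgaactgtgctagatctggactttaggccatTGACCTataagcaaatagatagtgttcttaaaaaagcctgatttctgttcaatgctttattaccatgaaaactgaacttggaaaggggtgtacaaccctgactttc
Abcb1a (chr5:8566841-8567140, plus strand): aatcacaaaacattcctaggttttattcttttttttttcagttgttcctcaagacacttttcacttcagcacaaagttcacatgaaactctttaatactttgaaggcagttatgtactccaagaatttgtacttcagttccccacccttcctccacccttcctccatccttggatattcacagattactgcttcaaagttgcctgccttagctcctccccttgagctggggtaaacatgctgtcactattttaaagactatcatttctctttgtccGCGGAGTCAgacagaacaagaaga
Abcc4 (chr14:118706170-118706469, minus strand): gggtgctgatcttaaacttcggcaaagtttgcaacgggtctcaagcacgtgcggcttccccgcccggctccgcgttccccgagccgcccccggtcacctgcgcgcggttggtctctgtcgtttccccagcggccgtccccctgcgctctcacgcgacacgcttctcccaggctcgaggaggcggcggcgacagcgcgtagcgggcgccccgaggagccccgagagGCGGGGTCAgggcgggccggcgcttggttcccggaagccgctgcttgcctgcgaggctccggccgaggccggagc
Slc51b (chr9:65422724-65423023, minus strand): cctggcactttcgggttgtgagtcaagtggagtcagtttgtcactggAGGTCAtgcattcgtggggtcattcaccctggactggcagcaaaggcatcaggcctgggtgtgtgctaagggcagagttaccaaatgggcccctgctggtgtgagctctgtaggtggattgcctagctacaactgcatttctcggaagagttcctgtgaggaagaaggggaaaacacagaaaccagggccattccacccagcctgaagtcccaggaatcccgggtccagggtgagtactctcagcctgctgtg

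Abcb11 and Slc51b each held 1 such hexamer, and Abcb1a and Abcc4 each held 1 antioxidant response element core. Uncalled members held them too: Abcc2 held 1 of each, and the hexamer also occurred in windows of Abcg2 and Slc51a. The Abcb4 window held neither. Among all 32851 windows of this length 16.3% held the hexamer and 12.4% the antioxidant core, so single matches are common. The windows also differ in base composition: G and C make up 72.7% of the Abcc4 window, 55.7% of that of Slc51b, 45.3% of that of Abcb11 and 40.3% of that of Abcb1a, against a median of 52.7% over all windows. A match is only a description of the letters.

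The comparison of pregnancy with the pre-pregnancy stage asked how these genes differ in late gestation. Of the 10 genes 4 were called lower and 0 higher, where 13.7% of all genes were called, 8.25% lower and 5.46% higher. Among the basolateral genes 3 of 5 were lower, and among the canalicular genes 1 of 5. With the arrays quantile normalized again the same number of members was called, while over all genes the split was 1284 higher and 1150 lower, against 993 and 1501 as deposited. The median difference over the 10 genes was -0.29, beside 0.045 over all genes.

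Abcc3 encodes a basolateral pump for glucuronides and other organic anions (also called Mrp3). Its level was 8.34 and 7.62 on the pregnant arrays, against 10.26 and 10.43 on the pre-pregnancy arrays. The groups lay far apart, although the pregnant arrays differed from each other by 0.72, more than in 98.1% of genes. Abcc3 fell 5.15-fold (log2 difference -2.37 ± 0.21 SE, limma adjusted p = 0.00128), and only 16 of 18194 genes had a more negative difference. Leaving out each array in turn kept the call, with differences of -2.73 to -2.01.

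Slc51b encodes the smaller subunit of the heteromeric basolateral carrier for bile acids and steroids. It stood at 5.75 and 5.47 in pregnancy, against 6.49 and 6.34 before it, so its arrays did not overlap. It fell 1.75-fold (-0.81 ± 0.14 SE, limma adjusted p = 0.0124). The adjusted p was 0.114 and 0.0556 without pre-pregnancy replicates 1 and 2, and 0.0565 without pregnancy replicate 2. Its partner Slc51a, which encodes the larger subunit, was dim, at 5.18 and 5.25 in pregnancy against 4.94 and 5.07 before it, close to the array medians. The Slc51a difference was 0.21 (95% interval -0.028 to 0.45, limma adjusted p = 0.208).

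Abcc4, a basolateral pump for cyclic nucleotides and, together with glutathione, bile salts (Mrp4), was at 5.90 and 5.94 in pregnancy, against 6.76 and 6.44 before it. Pregnant arrays both lay below the pre-pregnancy ones, and Abcc4 fell 1.6-fold (-0.68 ± 0.13 SE, limma adjusted p = 0.0174). Without pre-pregnancy replicate 1 the adjusted p was 0.123, and without pregnancy replicates 1 and 2 it was 0.055 and 0.0593. Abcc6, whose pump releases ATP from hepatocytes and so restrains mineralisation of soft tissue, was at 9.86 and 9.85, against 9.90 and 10.11. That difference of -0.15 (95% interval -0.40 to 0.10) was not called (limma adjusted p = 0.389).

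Abcb1a encodes a P-glycoprotein, a broad drug efflux pump of the canaliculus that vascular endothelium also expresses. Its brighter probe set read 6.52 and 6.54 in pregnancy, against 7.35 and 7.35 before it, with replicates nearly equal. Abcb1a fell 1.77-fold (-0.82 ± 0.14 SE, limma adjusted p = 0.0118), and without pre-pregnancy replicates 1 and 2 the adjusted p was 0.0964 and 0.0691. The other Abcb1a probe set, the only second probe set among the 10 genes, read 4.45 and 4.71, against 6.41 and 5.96, a difference of -1.61 (limma adjusted p = 0.00766 over 45037 probe sets). Both probe sets fell, but by amounts that differ, and the pregnant values of the second lie below the array medians. On the chromosome Abcb1a, Abcb1b and Abcb4 are neighbours in the RefSeq annotation of GRCm38.p6. Abcb1b, the other rodent P-glycoprotein gene, was near background, at 3.64 and 3.69 in pregnancy against 3.72 and 3.83 before it.

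Of 10 endothelial markers 3 (Tek, Emcn and Kdr) were called lower in pregnancy and 0 higher. Over all genes 8.25% were called lower and 5.46% higher. The summed linear signal of the 10 markers was 4139 and 4087 in pregnancy, against 6102 and 4816 before it. Of 8 Kupffer cell markers 1 was lower (Timd4) and 1 higher (Cd163), with sums of 4637 and 3661 against 4698 and 4940. Bile duct cells also express Abcc3, Slc51a and Slc51b. Of 9 bile duct markers measured, 1 was lower (Slc10a2) and 0 higher, and their sums were 1477 and 1264, against 1634 and 1693, mostly from the water channel gene Aqp1, which is not particular to these cells. Among the defining bile duct markers, Krt7 (4.16 to 4.56) and Cftr (3.30 to 3.52) were below the array medians on every array, while Epcam (5.30 to 6.14) was above them and Krt19 ran from 4.77 to 7.07. The part of these cells in the changes was not tested. In whole liver, fewer cells of a type and less RNA per cell cannot be told apart.

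The remaining canalicular pumps did not pass the test in pregnancy. Abcb11, the bile salt export pump, was at 11.64 and 11.45, against 10.88 and 11.30, a difference of 0.46 (95% interval 0.10 to 0.81, limma adjusted p = 0.0867). Pre-pregnancy replicates of Abcb11 differed by 0.42, more than in 95.8% of genes. Abcb4, which moves phosphatidylcholine into bile, was at 12.11 and 11.39, against 11.29 and 11.34. Pregnancy replicate 1 alone stood high, so the Abcb4 difference of 0.44 (95% interval -0.048 to 0.92, limma adjusted p = 0.2) was 0.08 without it, and 0.80 (adjusted p = 0.0185) without pregnancy replicate 2. Abcg2, a pump for sulfated steroids and many drugs (Bcrp), was at 9.43 and 9.31, against 10.01 and 9.60, a difference of -0.44 (95% interval -0.79 to -0.081, limma adjusted p = 0.0999). Abcc2, the pump for bilirubin glucuronides (Mrp2), was at 9.80 and 9.66, against 9.82 and 9.76, and its interval of -0.30 to 0.18 on the log2 scale leaves out a change as large as that of Abcc3. Arrays of pregnancy and pre-pregnancy did not overlap in 9 of the 10 genes, beside 59.6% of all genes.

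**Figure D2:**
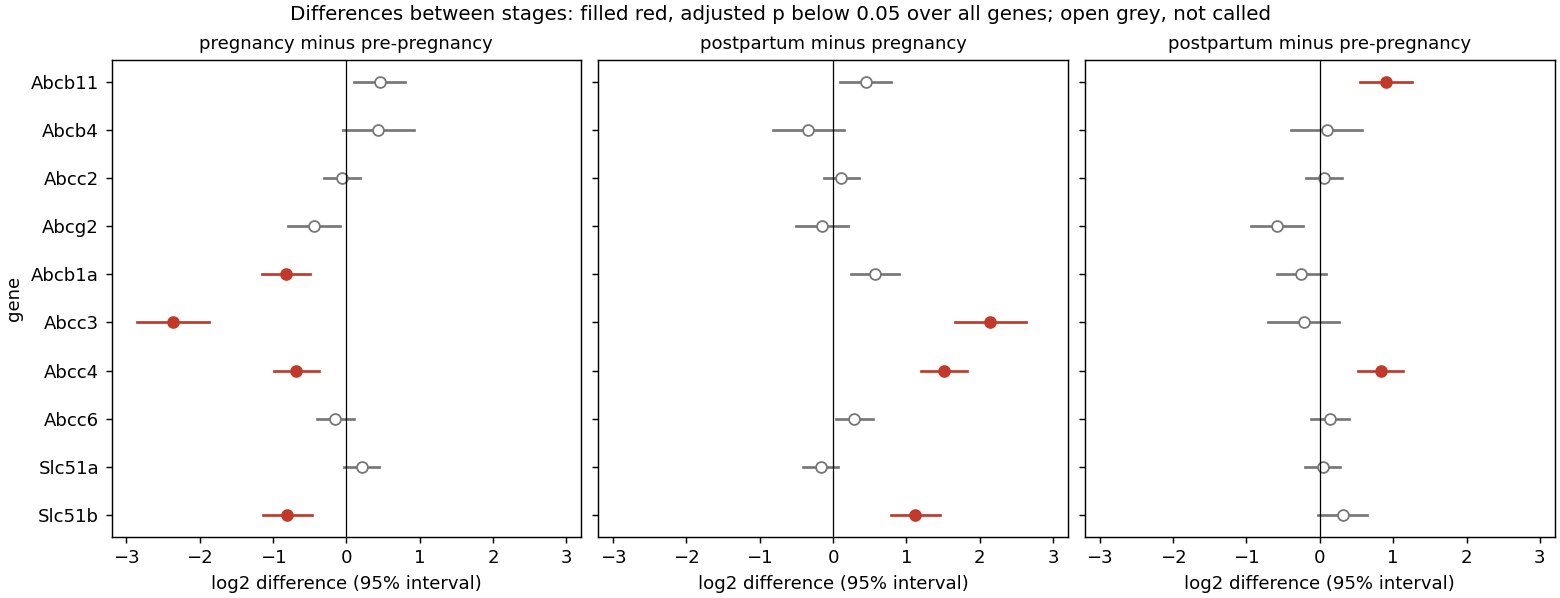
Log2 difference between stages for each gene (points) with 95% intervals from limma (lines), first stage named minus second; filled red points passed the adjusted threshold over all genes. Abcc3, Abcc4, Slc51b and Abcb1a lie left of 0 in pregnancy minus pre-pregnancy, and Abcc3, Abcc4 and Slc51b lie right of 0 in postpartum minus pregnancy.

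Postpartum livers were set against pregnant livers to ask what differs after birth. Of the 10 genes 3 were higher and 0 lower, all 3 of them basolateral, where 3.29% of all genes were called, 2.41% higher and 0.879% lower. After repeated quantile normalization the split over all genes was 286 higher and 189 lower, against 439 and 160 as deposited, with the same number of members called. The median difference over the 10 genes was 0.37, beside -0.01 over all genes. This comparison shares the pregnant arrays with the one before, so a gene that is low on those arrays is low in both.

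Abcc3 was at 10.12 and 10.13 postpartum, against 8.34 and 7.62 in pregnancy, and rose 4.42-fold (log2 difference 2.15 ± 0.21 SE, limma adjusted p = 0.00381). Postpartum replicates differed by only 0.01, and 16 genes had a larger positive difference. Abcc4 was at 7.52 and 7.34, against 5.90 and 5.94, and rose 2.85-fold (1.51 ± 0.13 SE, limma adjusted p = 0.00271). Both calls were kept whichever array was left out. Slc51b was at 6.87 and 6.59, against 5.75 and 5.47, and rose 2.17-fold (1.12 ± 0.14 SE, limma adjusted p = 0.0108). Without postpartum replicate 1 its difference was 0.98 (adjusted p = 0.0644).

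The bile duct markers Krt19, Epcam, Sox9, Cftr and Slc5a1 were highest on postpartum replicate 1. Cldn4 was highest on postpartum replicate 2 (4.75), and Krt7 (4.56), Slc10a2 (6.45) and Aqp1 (10.52) were highest on pre-pregnancy arrays. Of the 9 markers 0 were called in this comparison. Epcam was at 6.14 and 5.53 postpartum, against 5.30 and 5.32 in pregnancy, and Sox9 at 4.97 and 4.72, against 4.59 and 4.49, so neither overlapped (differences 0.53 and 0.31, limma adjusted p = 0.164 and 0.199). Krt19 was at 7.07 and 5.30, against 5.33 and 4.97 (difference 1.04, limma adjusted p = 0.283). The summed signal of the 9 markers was 1679 and 1361 postpartum, against 1477 and 1264 in pregnancy. Sums of the 10 endothelial markers were 4096 and 3837, against 4139 and 4087, and those of the 8 Kupffer cell markers 4485 and 4902, against 4637 and 3661, with 0 called in either list. Their part in the postpartum rises was not tested.

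Abcb1a read 7.31 and 6.89 postpartum, against 6.52 and 6.54 in pregnancy, and the difference of 0.57 was not called (95% interval 0.24 to 0.90, limma adjusted p = 0.0771). Its second probe set read 5.53 and 4.79, against 4.45 and 4.71, with only the first replicate standing clearly apart. Abcb11 was at 12.02 and 11.96, against 11.64 and 11.45 (difference 0.45, limma adjusted p = 0.155). Abcc6 was at 10.14 and 10.15, against 9.86 and 9.85 (difference 0.29, limma adjusted p = 0.189). Both genes had arrays that did not overlap, which also held for 50.1% of all genes. The other members, Abcb4, Abcc2, Abcg2 and Slc51a, differed by -0.34 to 0.12 with adjusted p-values of 0.395 or more, and the Abcb4 value turned to 0.02 without pregnancy replicate 1.

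**Figure D3:**
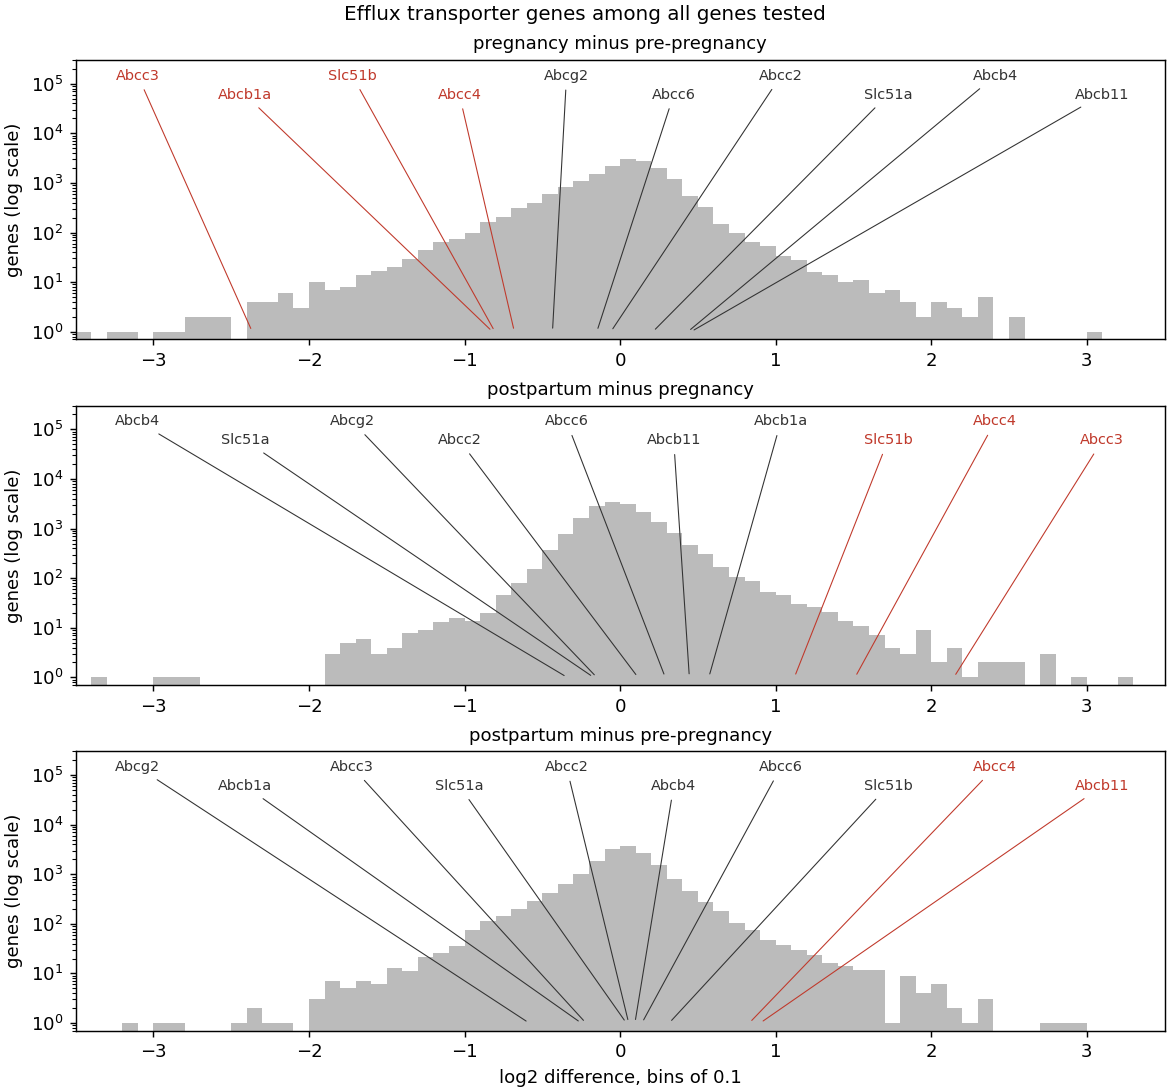
Distribution of log2 differences over all 18194 genes (grey bars, bins of 0.1, number of genes on a log scale) in each comparison, with a line from each efflux transporter gene to its own difference; red names passed the adjusted threshold. Abcc3 lies in the far tail of both comparisons that use the pregnant arrays, at -2.37 and 2.15, and near the centre in postpartum minus pre-pregnancy, at -0.22.

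Postpartum livers were also compared with pre-pregnancy livers, the baseline to which a pregnancy change would return. Of the 10 genes 2 were higher and 0 lower, 1 of them canalicular and 1 basolateral, where 7.66% of all genes were called, 3.91% higher and 3.75% lower. Abcb11 was at 12.02 and 11.96 postpartum, against 10.88 and 11.30 before pregnancy, and rose 1.87-fold (log2 difference 0.90 ± 0.15 SE, limma adjusted p = 0.0159). Its order over the stages was pre-pregnancy lowest, pregnancy next and postpartum highest, and neighbouring stages were not called different, except pregnancy against pre-pregnancy with a trended robust variance (0.46, limma adjusted p = 0.0485). Without pre-pregnancy replicate 1 the Abcb11 difference was 0.69 (adjusted p = 0.116), and without postpartum replicates 1 and 2 the adjusted p was 0.0695 and 0.0853.

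Abcc4 was at 7.52 and 7.34 postpartum, against 6.76 and 6.44 before pregnancy, and rose 1.78-fold (0.83 ± 0.13 SE, limma adjusted p = 0.0139). It is the only member called in all 3 comparisons, with pregnancy lowest and postpartum highest. Without pre-pregnancy replicates 1 and 2 its adjusted p was 0.0587 and 0.0732, and without postpartum replicates 1 and 2 it was 0.0683 and 0.0574, while the difference stayed between 0.67 and 0.99. In each of these fits 1 group was left with a single array, which lowers the number of calls over all genes too. Without pre-pregnancy replicate 1, for example, 73 genes in all were called, against 1393 with every array.

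Abcc3 was at 10.12 and 10.13 postpartum, against 10.26 and 10.43, a difference of -0.22 that was not called (95% interval -0.71 to 0.27, limma adjusted p = 0.615). Slc51b was at 6.87 and 6.59, against 6.49 and 6.34 (difference 0.32, 95% interval -0.018 to 0.65, limma adjusted p = 0.244). Both intervals leave out a difference as large as that seen for the same gene in pregnancy. Abcg2 was at 9.32 and 9.12, against 10.01 and 9.60, the largest negative difference among the 10 genes (-0.59, 95% interval -0.94 to -0.23), and did not pass (limma adjusted p = 0.0603). Its stage means ran from 9.81 before pregnancy to 9.37 in pregnancy and 9.22 postpartum. The brighter Abcb1a probe set differed by -0.25 (limma adjusted p = 0.359), while the second one differed by -1.03 (limma adjusted p = 0.0494 over all probe sets). Both probe sets were lower postpartum without overlap of arrays, but only the second passed the threshold. On postpartum replicate 2 the second read 4.79, below the array medians. Abcb4, Abcc2, Abcc6 and Slc51a differed by 0.04 to 0.14, each with an adjusted p of 0.521 or more. Postpartum and pre-pregnancy arrays did not overlap in 8 of the 10 genes, beside 52.6% of all genes. Sums of the 10 endothelial markers were 4096 and 3837 postpartum, against 6102 and 4816 before pregnancy, with 0 called. Of 9 bile duct markers 1 was lower (Slc10a2) and 0 higher. Of 8 Kupffer cell markers 1 was lower (Timd4) and 1 higher (Marco). Over all genes 3.75% were called lower and 3.91% higher. The part of these cells in the differences was not tested.

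**Figure D4:**
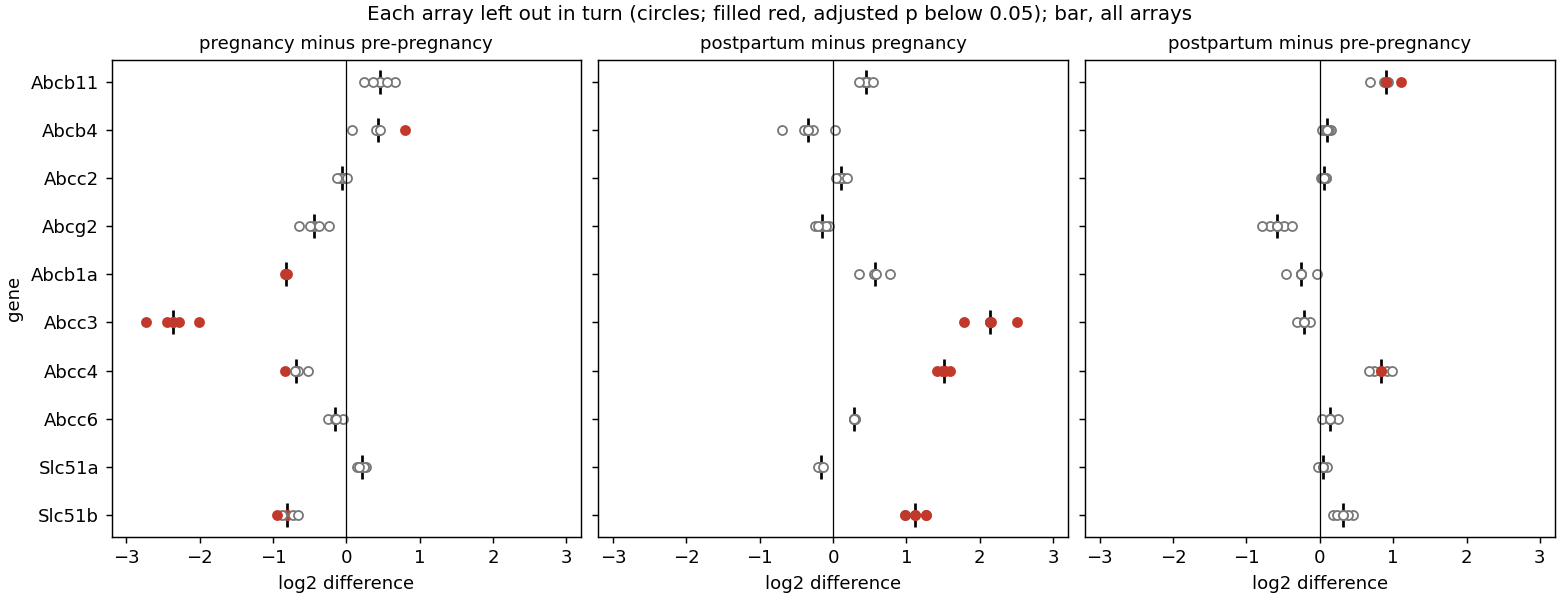
Log2 difference of each gene with all arrays (black bar) and with each array left out in turn (circles; filled red, adjusted p below 0.05). Abcc3 keeps its calls in the 2 comparisons that involve pregnancy, and Abcc4 in postpartum minus pregnancy, while Abcb4 spreads most among the uncalled genes, from 0.08 to 0.80 in pregnancy minus pre-pregnancy.

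The members differed among themselves in the size of their swing across stages. The brightest stage mean exceeded the dimmest 5.15-fold for Abcc3, 2.85-fold for Abcc4 and 2.17-fold for Slc51b. The same ratio was 1.87-fold for Abcb11, 1.77-fold for Abcb1a, 1.5-fold for Abcg2 and 1.35-fold for Abcb4. It was 1.22-fold for Abcc6, 1.16-fold for Slc51a and 1.08-fold for Abcc2.

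Genes whose pattern was most like that of a called member were sought by Pearson correlation over the 6 arrays, among 3451 genes with stage means at least 0.5 apart. These values are a description, since any gene with a similar order of stages scores high over so few arrays. Nearest to Abcc3 were the sideroflexin gene Sfxn5 (r = 0.995), Tlcd2 (0.995) and Ddah1, which breaks down asymmetric dimethylarginine (0.991). Ddah1 was at 9.45 and 8.44 on the pregnant arrays, against 11.09 and 11.01 before pregnancy, with the same pregnant array lower as in Abcc3. Slc51b was followed most closely by the adiponectin receptor gene Adipor2 (0.995), Eef1akmt1 (0.995) and the malic enzyme gene Me1 (0.992). Abcc4 had Ikbkg (0.992), the co-chaperone gene Bag1 (0.985) and Serpinb1a (0.985) beside it. Abcb1a had B330016D10Rik (0.992), the cytokine gene Il18 (0.990) and the actin-bundling gene Pls3 (0.990), and Abcb11 had the lipase gene Lipe (0.997), Zfp707 (0.995) and Phka2 (0.993).

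Other genes of hepatobiliary efflux were counted beside the members, 19 listed and 17 measured. In pregnancy 3 were lower and 0 higher, where 13.7% of all genes were called. Postpartum against pregnancy 1 was higher and 0 lower, where 3.29% of all genes were called. Postpartum against pre-pregnancy 0 were higher and 2 lower, where 7.66% of all genes were called. Abcc1, a relative of Abcc3 that exports glutathione conjugates, was at 5 and 4.79 in pregnancy, against 5.89 and 5.88 (difference -0.99, limma adjusted p = 0.0028), and at 5.35 and 5.25 postpartum (-0.59 against pre-pregnancy, adjusted p = 0.0233). Slc9a3r1, a scaffold that anchors apical transporters, was lower in pregnancy (-0.65, limma adjusted p = 0.0154). Atp7b, which exports copper into bile, was at 8.32 and 8.33 in pregnancy, against 8.72 and 8.74 (-0.41, limma adjusted p = 0.0314), and rose again postpartum against pregnancy (0.46, adjusted p = 0.0489). Abcg5, one partner of the canalicular sterol pump, was lower postpartum than before pregnancy (-0.90, limma adjusted p = 0.0445). The other partner, Abcg8, differed by -0.44 in that comparison (adjusted p = 0.135). In pregnancy Abcg5 already differed from pre-pregnancy by -0.77 (limma adjusted p = 0.0505), and postpartum it differed from pregnancy by -0.13. The phospholipid flippase gene Atp8b1, whose loss causes cholestasis in humans, was not called in any of the 3 comparisons (-0.45 postpartum against pre-pregnancy, limma adjusted p = 0.107). With single arrays left out, the Abcc1 call in pregnancy was kept each time, though averaged over its probe sets the difference was -0.60. Its postpartum call was lost without any 1 of the 4 arrays compared (adjusted p of 0.071 to 0.164), as was that of Abcg5 (0.148 to 0.265). Slc9a3r1 lost its call without either pre-pregnancy array (0.0893 and 0.0868) or pregnancy replicate 1 (0.0526). Atp7b lost both calls without any 1 of the 6 arrays, and averaged over its probe sets it differed by only -0.15 in pregnancy and 0.047 postpartum against pregnancy.

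Of 18 receptors and regulators listed 16 were measured, and 2 were higher and 2 lower in pregnancy than before it. Over all genes 5.46% were called higher and 8.25% lower there. FXR (Nr1h4), the bile acid sensor, was at 10.02 and 10.02 in pregnancy, against 10.42 and 10.52 (difference -0.45, limma adjusted p = 0.0254). It remained at 10.01 and 10.01 postpartum (-0.46 against pre-pregnancy, adjusted p = 0.0327). The estrogen receptor gene Esr1 was at 10.39 and 11.09 in pregnancy, against 12.18 and 12.02 (-1.36, limma adjusted p = 0.00749), and at 10.90 and 10.95 postpartum (-1.18 against pre-pregnancy, adjusted p = 0.0182). CAR (Nr1i3) was at 10.89 and 10.55 in pregnancy, against 10.14 and 10.19 (0.56, limma adjusted p = 0.0307), and was lower postpartum than in pregnancy (-0.62, adjusted p = 0.0488). PXR (Nr1i2) differed by 0.015 in pregnancy and Nrf2 (Nfe2l2) by 0.02, with limma adjusted p-values of 0.936 and 0.923. The vitamin D receptor gene Vdr was higher but dim, at 4.78 and 4.77 in pregnancy against 4.45 and 4.35 (0.38, limma adjusted p = 0.0449). Without pre-pregnancy replicate 1 the Esr1 call in pregnancy was lost (adjusted p = 0.0837). Nr1h4 lost its call in pregnancy without any 1 of the 4 arrays compared (0.063 to 0.112), and so it did postpartum (0.121 to 0.164), as did Esr1 (0.0729 to 0.164). The Nr1i3 and Vdr calls were as fragile: Vdr lost its call without any 1 of the 6 arrays (0.0746 to 0.167), and Nr1i3 without any but pregnancy replicate 2 (0.0521 to 0.198 over its 2 comparisons).

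Postpartum against pregnancy, 0 of the 16 regulators were higher and 1, Nr1i3, was lower, beside 2.41% and 0.879% of all genes. Against pre-pregnancy 2 were higher and 3 lower postpartum, beside 3.91% and 3.75% of all genes. The fatty acid receptor gene Ppara was at 11 and 11.02 postpartum, against 11.93 and 11.81 before pregnancy (-0.86, limma adjusted p = 0.00917). Keap1, the inhibitor of Nrf2, was at 9.54 and 9.45 postpartum, against 8.88 and 8.81 (0.65, limma adjusted p = 0.0166), and the FGF15 co-receptor gene Klb was also higher (0.56, adjusted p = 0.041). Ppara lost its call without pre-pregnancy replicate 1 (0.103) or postpartum replicate 2 (0.0574), Keap1 without any 1 of the 4 arrays compared (0.0786 to 0.121) and Klb without any 1 of the 6 (0.051 to 0.231). SHP (Nr0b2), a repressor induced by FXR, was at 10.18 and 8.17 in pregnancy, against 9.38 and 10.46 before it. Within each of these stages its replicates differed by more than the stage means did. Postpartum its replicates were close, at 9.94 and 9.85.

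**Figure D5:**
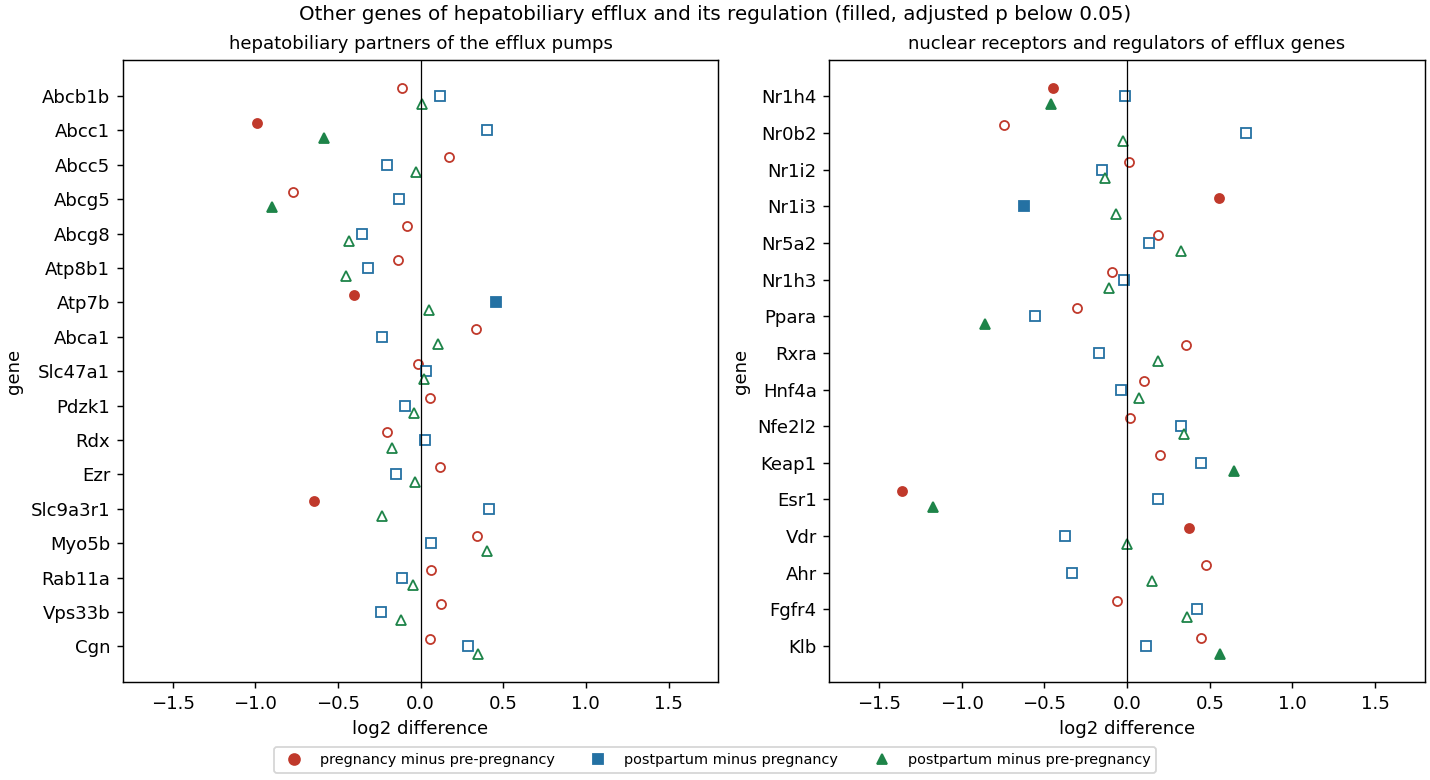
Log2 differences between stages for 17 other genes of hepatobiliary efflux (left) and 16 receptors and regulators (right), first stage named minus second; filled symbols passed the adjusted threshold over all genes. Esr1 and Nr1h4 are lower in both comparisons with pre-pregnancy, and Abcc1 is the lowest of the partner genes in pregnancy minus pre-pregnancy, at -0.99.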

How the data were processed

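The deposited values are log2 expression per probe set, made by the authors with RMA and Affymetrix Power Tools, per the submitters' processing notes; no source used here gives their versions or settings, and the log2 base was inferred from the values. RMA usually equalises the distribution of arrays and shrinks differences near background. The deposited arrays were not fully equal, with medians of 5.09 to 5.15, and quantile normalization again changed the split of calls over all genes. Probe sets with exactly 1 gene symbol in the platform annotation were named (34958 of 45101), and each gene was represented by its probe set of highest mean. No filter on low values was applied, so all 10 genes were tested. The test was limma (version 3.58.1, R version 4.3.3; a mean per stage, all 6 arrays, eBayes, 3 residual and 4.8 prior degrees of freedom, two-sided), with Benjamini-Hochberg adjustment over 18194 genes; the test was tried on simulated data. The p-values set differences between stage means against the spread between replicate livers, and that spread is estimated in part from all genes. The probe sets of Abcc2 and Slc51a are of a type (_s_at) that can match more than 1 transcript.

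The members, gene lists and marker lists were chosen with earlier results of these data known. Named genes are all 10 members, the 3 nearest patterns of each called member, and up to 6 genes of each list, called ones first, with Atp8b1, Abcg8, Vdr, Nr1i2, Nfe2l2 and Nr0b2 added after their values were seen. The labels do not say whether replicate numbers pair the samples, and the main test used no pairing. Deviations of replicate 1 from the stage means correlated at 0.0285, 0.111 and -0.0273 between stages, which cannot decide this. Alternatives were a replicate block, each array left out, no dim genes (mean under 4.56), repeated quantile normalization, median centring, a trended robust variance, the mean of probe sets, every probe set, only the groups compared and a threshold of 0.1. No build is named for the array files, so the only coordinates given are those of the RefSeq promoter windows (GRCm38.p6).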

Additional observations from a re-analysis of the deposited data

How the results depend on the processing

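Under the alternatives, 395 of 420 values of the 10 genes kept their direction and side of the threshold. Of the rest, 16 lost a call, 5 gained one and 4 changed sign. Values that stayed uncalled count as kept here, and most of the 420 come from uncalled differences. Some alternatives also repeat each other. Leaving out an array of the group not compared gave the same values as fitting only the groups compared. Leaving out each array in turn, the number of members called ranged from 1 to 4 in pregnancy against pre-pregnancy (4 with all arrays) and from 0 to 2 in postpartum against pre-pregnancy (2 with all arrays). It ranged from 2 to 3 in postpartum against pregnancy (3 with all arrays). The counts over all genes fell as well: without pre-pregnancy replicate 1, 323 genes were called in pregnancy against pre-pregnancy, and 2494 with all arrays. At a threshold of 0.1, 4066 genes and 6 members were called there. Postpartum against pregnancy, 203 genes were called with only those groups fitted, 115 without postpartum replicate 1 and 599 in all. Differences that changed sign were small and uncalled. With arrays left out in turn, Abcb4 ran from -0.70 to 0.02 postpartum against pregnancy (0.02 without pregnancy replicate 1). Abcc2 in pregnancy ran from -0.13 to 0.01 (0.01 without pregnancy replicate 2) and was 0.047 after repeated quantile normalization. Slc51a postpartum against pre-pregnancy ran from -0.025 (without pre-pregnancy replicate 1) to 0.105. The cause was not tested. The called genes of the partner and regulator lists were run through the same alternatives after the data were seen. Of their values 135 of 223 kept their call and 88 lost it. This count holds the same repeated fits. It covers called differences only, so it is not on the same footing as that of the 10 genes. With the replicate block, 5 members were called in pregnancy against pre-pregnancy, and 3 in each of the other comparisons. The gene added in the 2 comparisons with pre-pregnancy was Abcg2, at adjusted p = 0.0498 in pregnancy and 0.0286 postpartum against pre-pregnancy. A trended robust variance added Abcb11 in pregnancy (adjusted p = 0.0485) and Abcg2 postpartum against pre-pregnancy (0.0359).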
